A study of Mus musculus with 6 samples.

Results

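The genes described here are the 32 nuclear genes of the citrate cycle, of pyruvate entry into it, and of the malate-aspartate shuttle, taken by symbol from a table of 20588 genes. Members were chosen by gene name and pathway role, and all 32 symbols were found. All 32 passed the filter on low counts, which left 14025 genes for testing. RNA was taken from satellite cells, the stem cells of skeletal muscle, which had been sorted out of the hind limb of 2-month-old mice of strain C57BL/6NJ. One group was wild type (WT 1 to WT 3) and the other carried the Pnpla2PKO genotype (PKO 1 to PKO 3), a knockout of Pnpla2, which encodes the lipase that starts triglyceride breakdown in lipid droplets. What drove the deletion, and which part of the gene it removed, the sources used here do not give. Both groups were grown for 7 days and then held for 16 h in medium with 2% horse serum, a step that starts myogenic differentiation, so the cells are cultured and differentiating, not freshly sorted. Nothing in the labels ties replicates to separate mice or separate cultures, so a p-value here measures library-to-library spread, part of which may be technical. Where 3 values are given for a group, they are in the order of replicates 1, 2 and 3.

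The citrate cycle oxidises acetyl-CoA in the mitochondrial matrix and passes its electrons to the respiratory chain. Acetyl-CoA reaches it from pyruvate, through the mitochondrial pyruvate carrier and the pyruvate dehydrogenase complex, or from fatty acids, which lipolysis supplies. The malate-aspartate shuttle carries the electrons of cytosolic NADH into mitochondria, and so links glycolysis to respiration.

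Total counts ran from 15580176 to 18839151 per library. Pnpla2 was at 21.1, 38.5 and 33.7 CPM (library-size-scaled counts, with TMM factors) in WT and at 8.47, 16.0 and 15.5 CPM in PKO. Each PKO library thus lay below each WT library, at 42.8% of the WT mean (exact two-sided permutation p = 0.1, the smallest that 3 against 3 libraries allow). Myogenic identity was present throughout, with Myod1 at 1147 CPM or more and Myog at 2239 CPM or more in each library. The libraries were uneven within groups. The summed level of 13 stromal markers was 469 to 696 CPM in WT and 843, 3005 and 2148 CPM in PKO. Among them, Dpt was at 0 in WT and PKO 1, and Lum was under 1 CPM in each library. All 10 that edgeR tested were higher in PKO by log2 fold change. DESeq2 called 8 of the 11 with an adjusted p, where over all genes it called 4.73% higher and 0.933% lower. The summed level of 10 cell cycle markers was 936 and 989 CPM in WT 2 and WT 3, but 220 CPM in WT 1 and 270 to 340 CPM in PKO. Sarcomere markers summed to 29318 to 34684 CPM in WT and to 26559, 18874 and 16726 CPM in PKO. In a bulk sample, fewer cells of a type and less RNA per cell cannot be told apart.

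Most of the 32 genes were modestly lower in PKO, Idh2 the most, while Slc25a13 was at 2.11 times its WT level. By edgeR's log2 fold change 30 of the 32 were lower and 2 higher, where 51.7% of all genes tested were lower. The median log2 fold change was -0.28 among them and -0.02 over all genes tested. PKO lay wholly below WT for 11 of the 32 (34.4%), against 9.7% of all genes tested, and PKO lay wholly above WT for 1, Slc25a13, against 11.8%. No gene in the list passed edgeR's adjusted p threshold of 0.05 (0% of all genes tested passed it, and the smallest adjusted p in the list was 0.185), and limma-voom likewise called 0. At an unadjusted edgeR p under 0.05, 8 of the 32 were lower, a share of 25% where 6.35% of all genes tested were, and 1 was higher, where 10.2% were. DESeq2 called 2 of the 32. Idh2 was called lower, a direction in which it called 0.933% of genes with an adjusted p, and Slc25a13 was called higher, where it called 4.73%. Both calls were lost when WT 2, WT 3 or PKO 2 was left out, each of which left DESeq2 with 0 calls among the 32. Over all genes it then called 0.137%, 0.0844% and 0.408% lower and 1.88%, 1.7% and 1.64% higher. The Slc25a13 call was also lost without PKO 3 (1 of the 32 called lower and 0 higher). The same held without WT 1 and PKO 1 (9 lower and 0 higher). Over all genes DESeq2 called 0.219% lower and 1.66% higher without PKO 3, and 6.51% and 11.2% without WT 1 and PKO 1. The authors' deposited table has the same 2 genes under its adjusted p threshold, Idh2 at 0.0084 and Slc25a13 at 0.0263.

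**Figure D1:**
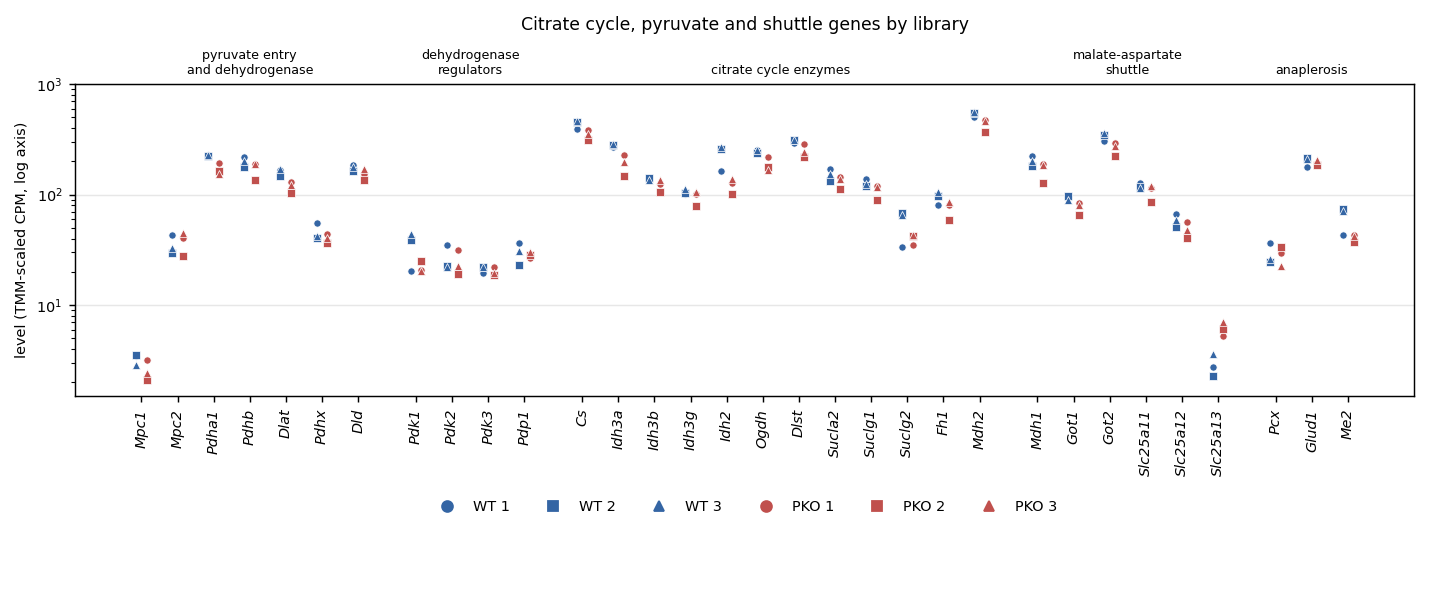
Level of each of the 32 genes (vertical axis, TMM-scaled CPM, log scale) in each library, with WT in blue and PKO in red and one symbol per replicate number; genes are ordered by role. Idh2 has the lowest PKO levels relative to WT, Slc25a13 at the low end is the gene with all PKO libraries above all WT libraries, and Mdh2 has the highest CPM.

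Of all counts, the 32 genes together took 0.453%, 0.467% and 0.486% in WT, against 0.421%, 0.338% and 0.412% in PKO. Their summed level averaged 4785 ± 161 CPM for WT and 3832 ± 458 CPM for PKO (SD, n = 3 each), or 80.1% of WT, with the groups apart. The size of the difference depended on the library. PKO 2 was the lowest library for 24 of the 32 genes, PKO 3 for 4 and PKO 1 for 0. The median difference from the WT mean, on the log2 scale, was -0.12, -0.48 and -0.19 in PKO, and between -0.03 and 0.03 in the WT libraries. Medians of 9 myogenic markers on the same scale were -0.10, -0.44 and -0.26 in PKO, so the library lowest in the metabolic genes was also the lowest in these, and it had the highest stromal marker sum. Their part in the result was not tested. Without PKO 2 the list median was -0.15, and with PKO 2 and PKO 3 both left out, which leaves 1 PKO library, it was -0.12. In that last setting PKO 1 lay below every WT library for 13 of the 32, against 22.2% of all genes tested.

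**Figure D2:**
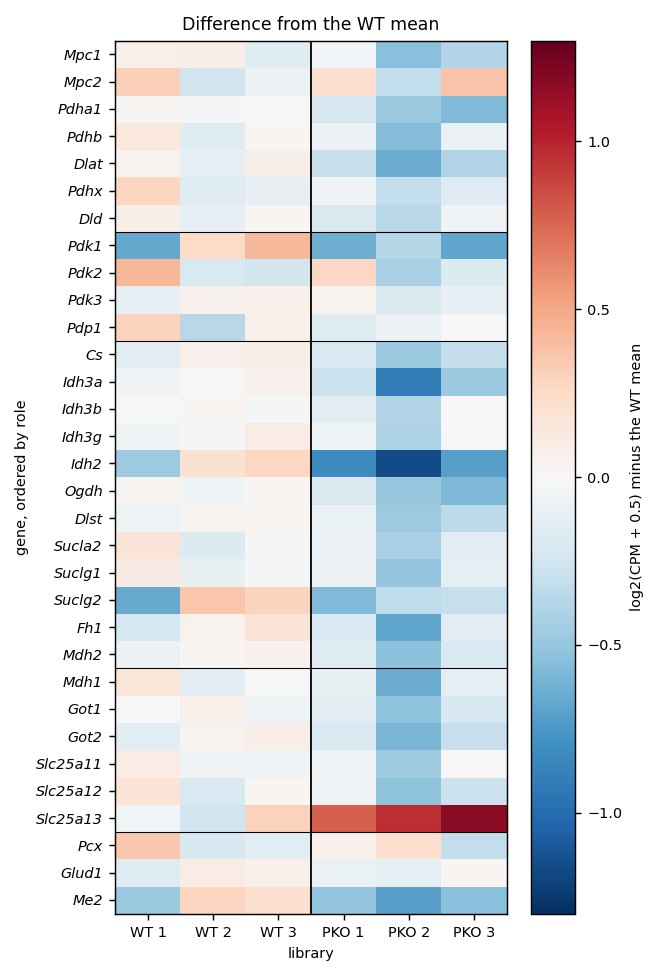
Difference of each gene from the WT mean, as log2(CPM + 0.5), in each library (columns); blue is below and red above the WT mean, and lines separate the roles. The PKO 2 column is the bluest, the Slc25a13 row is red in all 3 PKO libraries, and the rows of Pdk1, Idh2, Suclg2 and Me2 are blue in WT 1 as well as in PKO.

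Promoter sequence is shown for the pair of genes called in opposite directions, Idh2 and Slc25a13, and for Slc25a12, the close relative of Slc25a13 that did not share its direction. Each line gives the 250 bases before the RefSeq transcript start (GRCm38.p6), 5′ to 3′ on the coding strand, which is the minus strand for all 3. Capitals mark matches to any of 5 motifs searched on both strands. For Idh2, the last 42 of these bases fall inside the gene as the deposited table bounds it.
Idh2, chr7:80115351-80115600: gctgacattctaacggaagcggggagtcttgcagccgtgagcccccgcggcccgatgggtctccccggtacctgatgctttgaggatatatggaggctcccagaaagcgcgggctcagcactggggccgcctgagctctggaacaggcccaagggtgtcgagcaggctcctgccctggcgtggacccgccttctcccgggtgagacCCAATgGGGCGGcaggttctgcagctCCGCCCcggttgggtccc
Slc25a13, chr6:6217174-6217423: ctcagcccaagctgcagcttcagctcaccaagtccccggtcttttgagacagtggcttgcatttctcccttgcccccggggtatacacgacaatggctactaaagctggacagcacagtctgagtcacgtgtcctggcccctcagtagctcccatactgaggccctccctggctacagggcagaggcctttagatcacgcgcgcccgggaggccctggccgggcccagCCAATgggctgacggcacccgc
Slc25a12, chr2:71367756-71368005: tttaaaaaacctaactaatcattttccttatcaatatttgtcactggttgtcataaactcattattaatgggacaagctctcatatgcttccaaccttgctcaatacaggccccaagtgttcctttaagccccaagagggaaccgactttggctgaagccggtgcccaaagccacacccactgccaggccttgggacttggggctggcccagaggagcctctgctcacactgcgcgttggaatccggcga

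The Idh2 window held a CCAAT box with its first base at -44, next to a GC box at -38, and a second GC box at -18. That of Slc25a13 held a CCAAT box at -22, and that of Slc25a12 held none of the motifs. RefSeq windows were matched for 29 of the 32 genes (38 windows, as some genes have several starts, and those of one gene can overlap). The CCAAT box, searched as CCAAT, was in 52.6% of these windows and in 33.8% of all 32851 mouse windows. For the GC box, searched as GGGCGG, the shares were 55.3% and 32.7%. The estrogen-related receptor half-site AAGGTCA was in 2.63% against 4.08%, and the antioxidant response element TGACNNNGC in 10.5% against 10.2%. The NRF1 site searched as GCGCATGC was in 7.89% against 2.26%. Its 3 windows belong to Glud1 and Ogdh, and those of Ogdh overlap and hold the same site. Median GC content was 61.0% in the windows of these genes and 52.4% in all windows, and the motifs themselves differ in GC content, so the shares are a description only.

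Pyruvate enters mitochondria through a carrier made of MPC1 and MPC2. Mpc2 was at 43.5, 29.5 and 33.0 CPM in WT and at 40.7, 27.8 and 45.2 CPM in PKO, with overlapping groups, and its log2 fold change of 0.10 ± 0.22 (SE) was 1 of the 2 positive ones. Mpc1 was a low gene, at 3.48, 3.54 and 2.90 CPM in WT and 3.20, 2.11 and 2.41 CPM in PKO, also overlapping. It shares 480 exon bases with an antisense transcript and is 99.7% identical over 330 bases to its pseudogene. That pseudogene had 304 counts over the 6 libraries and Mpc1 had 37 to 60 per library, so the counts of Mpc1 are uncertain.

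The pyruvate dehydrogenase complex turns pyruvate into acetyl-CoA, and Pdha1 and Dlat had the smallest edgeR p of its genes. Pdha1, the E1 alpha subunit on the X chromosome (chrX:160122209-160138413, GRCm38), was at 230, 224 and 228 CPM in WT, a spread of 1.03 times between the highest and lowest. It was at 195, 162 and 153 CPM in PKO, so the groups did not overlap, with means of 227 ± 3.25 and 170 ± 22.3 CPM (SD, n = 3 each). Its log2 fold change was -0.42 ± 0.13 (SE; edgeR adjusted p = 0.21, DESeq2 adjusted p = 0.101). Pdha1 shares 603 exon bases with Map3k15 on the other strand, a gene with 112 counts over the 6 libraries. Dlat, the E2 acetyltransferase (chr9:50634633-50659780), was at 167, 147 and 170 CPM in WT and at 131, 103 and 123 CPM in PKO, again without overlap. The corresponding log2 fold change was -0.44 ± 0.13 (SE; edgeR adjusted p = 0.205, DESeq2 adjusted p = 0.0996).

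Differences in the other subunits were smaller and the groups overlapped. Pdhb, the E1 beta partner of Pdha1, was at 219, 180 and 203 CPM in WT and 189, 135 and 188 CPM in PKO. Pdhx, which tethers E3 to the core, was at 55.3, 40.4 and 42.3 CPM in WT and 44.2, 36.4 and 40.5 CPM in PKO. Dld, the E3 subunit that the 2-oxoglutarate dehydrogenase complex also uses, was at 186, 164 and 179 CPM in WT and 154, 137 and 170 CPM in PKO. For these 3 genes the log2 fold changes were -0.23, -0.19 and -0.20. Of the 7 genes for carrier and complex, 6 were lower. PKO lay wholly below WT for 2 of the 7, against 9.7% of all genes tested.

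The listed genes for kinases that switch the complex off and for the phosphatase that switches it on were all lower by log2 fold change. The sizes were uneven, the groups overlapped for each, and the 4 genes had a median log2 fold change of -0.11. Pdk1 was at 20.3, 38.6 and 43.8 CPM in WT and at 20.8, 24.98 and 20.2 CPM in PKO. WT 1 thus lay with the PKO libraries, and the log2 fold change was -0.64 ± 0.28 (SE; edgeR adjusted p = 0.316). Pdk2 was at 35.2, 22.6 and 22.0 CPM in WT and 31.3, 19.2 and 22.8 CPM in PKO, where WT 1 and PKO 1 were the high ones. Pdk3 varied little, at 19.4, 22.1 and 22.3 CPM in WT and 22.0, 18.7 and 19.6 CPM in PKO, with a log2 fold change of -0.08 ± 0.14 (SE; edgeR adjusted p = 0.798) whose 95% interval ran from -0.42 to 0.26. The phosphatase gene Pdp1 was at 36.6, 23.2 and 31.2 CPM in WT and 26.7, 28.2 and 29.97 CPM in PKO, all PKO libraries inside the WT range.

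As shares of the summed level per length of Pdk1, Pdk2 and Pdk3, Pdk1 made up 13.6%, 26.7% and 29.4% in WT and 14.2%, 21.7% and 16.7% in PKO. Pdk2 made up 54.5%, 36.0% and 34.0% in WT and 49.2%, 38.6% and 43.6% in PKO. Pdk3 made up 31.9%, 37.3% and 36.6% in WT and 36.6%, 39.7% and 39.7% in PKO, so that it was above Pdk2 in WT 2, WT 3 and PKO 2. The lowest Pdk1 share and the highest Pdk2 share were both in WT 1, and PKO 1 was next in both. Pdk4, a kinase gene outside the 32, was not in this sum, so these are not shares of all kinase RNA. Its level was 27.5, 24.2 and 19.5 CPM in WT and 47.5, 15.5 and 20.4 CPM in PKO, highest in PKO 1.

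**Figure D3:**
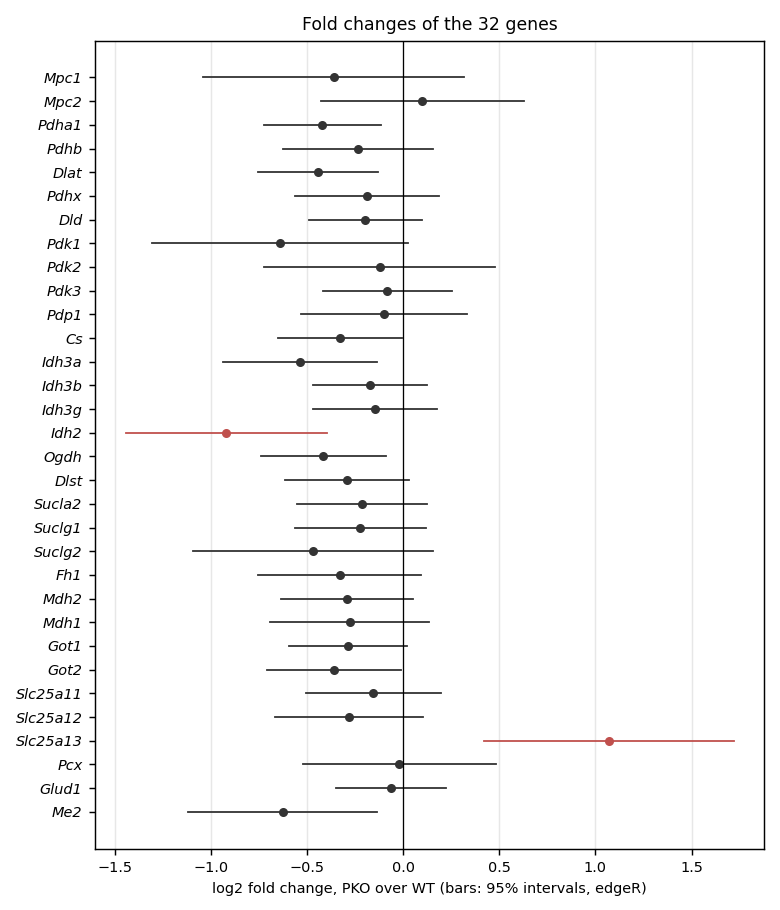
Log2 fold change, PKO over WT, of each of the 32 genes (points; bars are 95% intervals of edgeR's fit with n = 3 per group); red marks the 2 genes with a DESeq2 adjusted p under 0.05. All but Mpc2 and Slc25a13 lie left of 0, with Idh2 farthest at -0.92 and Slc25a13 at 1.07 on the right.

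Each of the 12 citrate cycle enzymes was lower by log2 fold change, with a median of -0.31. PKO lay wholly below WT for 6 of the 12, against 9.7% of all genes tested. Idh2, the NADP-dependent isocitrate dehydrogenase of mitochondria, which makes NADPH rather than NADH (chr7:80094846-80115392), had the lowest fold change of the list. It was at 163, 260 and 272 CPM in WT and at 128, 100.8 and 138 CPM in PKO. The groups did not overlap, although WT 1 was closer to PKO 3 than to the other WT libraries, and the PKO mean was 52.9% of WT. With a log2 fold change of -0.92 ± 0.22 (SE), Idh2 did not pass edgeR (adjusted p = 0.185) and passed DESeq2 (adjusted p = 0.00796). Across the alternatives its adjusted p ran from 0.00796 to 0.924, and it was 0.016 with edgeR without WT 1.

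The NAD-dependent isocitrate dehydrogenase, which runs the forward cycle, is built from 3 subunits, and they differed in size of effect. Idh3a, the catalytic one (chr9:54586511-54604661), was at 270, 278 and 289 CPM in WT and 229, 149 and 199 CPM in PKO. Its WT libraries were within 1.07 times of each other and all 3 PKO libraries lay below them, at a log2 fold change of -0.54 ± 0.17 (SE; edgeR adjusted p = 0.22, DESeq2 adjusted p = 0.0921). The regulatory subunits Idh3b and Idh3g overlapped between groups. Idh3b was at 137, 140 and 135 CPM in WT and 124, 105 and 137 CPM in PKO, and Idh3g was at 100.5, 103 and 112 CPM in WT and 100.9, 79.7 and 105 CPM in PKO. Their log2 fold changes were -0.17 ± 0.13 and -0.14 ± 0.14 (SE). The difference between subunits was not tested.

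Cs, citrate synthase, which opens the cycle, was at 395, 458 and 461 CPM in WT and 381, 313 and 353 CPM in PKO, without overlap, although WT 1 and PKO 1 were close. Ogdh, the E1 subunit of 2-oxoglutarate dehydrogenase, was at 256, 240 and 255 CPM in WT and 219, 178 and 166 CPM in PKO, also without overlap. Its E2 partner Dlst was at 292, 313 and 313 CPM in WT and at 287, 221 and 242 CPM in PKO, so PKO 1 lay just below WT 1. These 3 genes had log2 fold changes of -0.33, -0.41 and -0.29.

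Succinyl-CoA ligase pairs the common alpha subunit Suclg1 with an ATP-forming (Sucla2) or a GTP-forming (Suclg2) beta subunit. Suclg1 was at 137, 119 and 126 CPM in WT and 121, 89.5 and 117.6 CPM in PKO, and Sucla2 at 169, 134 and 152 CPM in WT and 143, 113 and 137 CPM in PKO, both overlapping. Suclg2 followed another pattern, at 33.4, 67.9 and 64.8 CPM in WT against 35.3, 41.997 and 42.7 CPM in PKO. WT 1 was its lowest library of all 6. The Sucla2 to Suclg2 ratio per length was accordingly 5.18 in WT 1, 2.01 and 2.40 in WT 2 and WT 3, and 2.74 to 4.14 in PKO. Suclg2 also has a processed pseudogene 98.9% identical over 1302 bases, with 19 counts over the 6 libraries.

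Fh1, fumarase, was at 80.0, 96.9 and 106 CPM in WT and 81.4, 58.4 and 85.1 CPM in PKO, with overlap. Mdh2, the malate dehydrogenase of mitochondria, had the highest length-scaled level of the list, at 361 FPKM in WT against 0.908 FPKM for Slc25a13 at the low end. In CPM it was at 507, 544 and 558 in WT and 478, 370 and 466 in PKO, without overlap and with a log2 fold change of -0.29 ± 0.15 (SE).

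In the malate-aspartate shuttle, 5 of 6 genes were lower, and the sixth, Slc25a13, was the one gene of the list to be higher in every PKO library. Slc25a13 encodes citrin, 1 of a pair of calcium-regulated aspartate-glutamate carriers of the inner mitochondrial membrane, and citrin is best known from liver. It was at 2.78, 2.29 and 3.61 CPM in WT and 5.22, 6.03 and 7.03 CPM in PKO (chr6:6041218-6217173). These levels are low, with 35 to 137 counts per library, but the groups did not overlap. The PKO mean was 2.11-fold the WT mean (6.10 ± 0.905 against 2.89 ± 0.668 CPM, SD, n = 3 each), at a log2 fold change of 1.07 ± 0.28 (SE; edgeR adjusted p = 0.19, DESeq2 adjusted p = 0.0242). It stayed positive under all alternatives, from 0.85 with PKO 2 and PKO 3 left out to 1.26 without WT 3, with adjusted p from 0.0242 to 0.924.

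Slc25a12, which encodes aralar, the carrier known from muscle and brain, was at 66.3, 50.9 and 59.5 CPM in WT and 56.7, 40.7 and 48.1 CPM in PKO, with overlap and a log2 fold change of -0.28 ± 0.16 (SE). Per length, the Slc25a12 to Slc25a13 ratio was 11.7, 10.9 and 8.10 in WT and 5.33, 3.32 and 3.36 in PKO. All PKO values thus lay below all WT values, with means of 10.3 ± 1.91 and 4.005 ± 1.15 (SD, n = 3 each). Slc25a12 was still the more abundant transcript in each library. The lowest ratios were in PKO 2 and PKO 3, the libraries with the highest stromal marker sums (3005 and 2148 CPM), and the ratio in PKO 1, at 843 CPM, was the closest to WT; the part of stromal RNA in this was not tested.

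**Figure D4:**
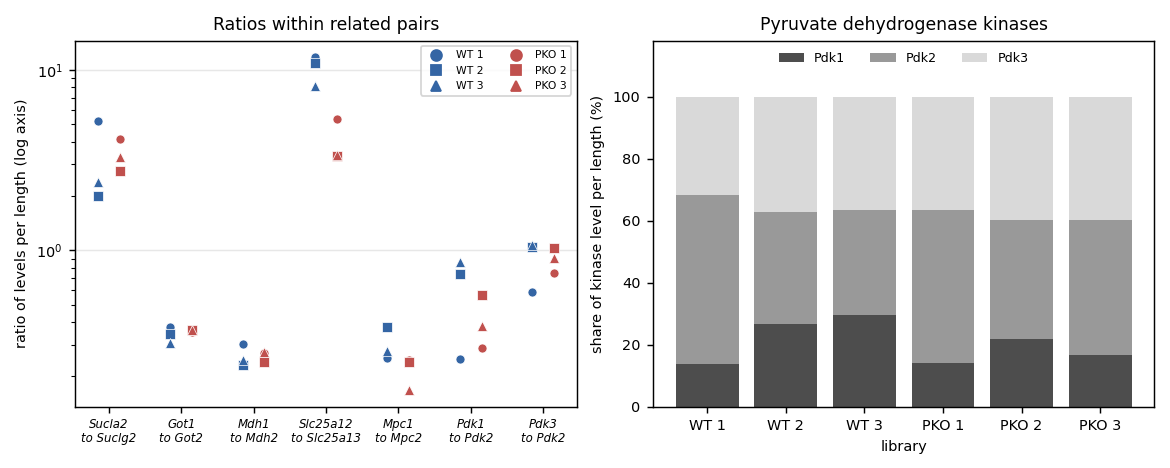
Left, ratio of levels per length for 7 pairs of related genes in each library (log axis; WT blue, PKO red); right, share of each of 3 pyruvate dehydrogenase kinases in their summed level per length. Only the Slc25a12 to Slc25a13 and Mpc1 to Mpc2 ratios lie with all PKO libraries below all WT libraries, and WT 1 resembles PKO 1 in its kinase shares. For Mpc1 to Mpc2 the gap is narrow (0.253 in WT 1 against 0.248 in PKO 1), and the counts of Mpc1 are uncertain.

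The 2 aspartate aminotransferases were both lower without overlap. Got2, of the mitochondria, was at 308, 349 and 359 CPM in WT and 295, 223 and 274 CPM in PKO, a log2 fold change of -0.36 ± 0.15 (SE; edgeR adjusted p = 0.291, DESeq2 adjusted p = 0.247). Reads of Got2 can be shared with a processed pseudogene 99.1% identical over 1293 bases, which had 17 counts over the 6 libraries. Cytosolic Got1 was at 93.7, 98.0 and 89.7 CPM in WT and 84.4, 65.3 and 81.0 CPM in PKO. The Got1 to Got2 ratio per length was 0.342 ± 0.034 in WT and 0.358 ± 0.006 in PKO (SD, n = 3 each), with the PKO libraries inside the WT range.

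Cytosolic malate dehydrogenase, Mdh1, was at 225, 182 and 200 CPM in WT and 188, 129 and 185 CPM in PKO. Slc25a11, the oxoglutarate-malate carrier, was at 128, 116 and 115 CPM in WT and 116, 86.6 and 120 CPM in PKO. Both overlapped between groups. Exon bases are shared with a gene on the other strand by Idh3b (5 bases, Nop56), Mdh1 (52 bases, Wdpcp) and Slc25a11 (189 bases, Rnf167), whose reads cannot be told apart if strand was not used in counting. The Mdh1 to Mdh2 ratio per length was 0.260 ± 0.039 in WT and 0.260 ± 0.019 in PKO (SD, n = 3 each).

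Of the genes that fill or drain the cycle, Me2 was lower and the others differed little. Me2, the NAD-dependent malic enzyme of mitochondria, which makes pyruvate from malate, was at 43.5, 74.4 and 70.8 CPM in WT and 43.1, 37.4 and 41.9 CPM in PKO. The groups did not overlap, but WT 1 lay next to PKO 1, and the log2 fold change was -0.62 ± 0.21 (SE; edgeR adjusted p = 0.235, DESeq2 adjusted p = 0.118). Glud1, glutamate dehydrogenase, was at 179, 215 and 210 CPM in WT and 188, 185 and 204 CPM in PKO. Its log2 fold change of -0.06 ± 0.12 (SE; edgeR adjusted p = 0.81) had a 95% interval from -0.35 to 0.22. Pcx, pyruvate carboxylase, which makes oxaloacetate from pyruvate, was at 36.6, 24.6 and 25.9 CPM in WT and 29.7, 33.4 and 22.8 CPM in PKO, fully intermixed.

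In 4 genes, Pdk1, Idh2, Suclg2 and Me2, WT 1 was over 25% below both other WT libraries, a pattern picked out after the values were seen. The same held for 15.1% of all genes tested and for 10 of 10 cell cycle markers. WT 1 was also the WT library with the low cell cycle sum of 220 CPM, close to the PKO libraries. With WT 1 left out, edgeR called these 4 genes lower and no other of the 32, at log2 fold changes of -0.91 for Pdk1, -1.12 for Idh2, -0.74 for Suclg2 and -0.84 for Me2 (edgeR adjusted p of 0.023, 0.016, 0.0274 and 0.0159), where 3.32% of all genes tested were called lower. Leaving out WT 1 raises the WT mean of genes picked for a low WT 1 and narrows their WT spread. The calls on these 4 genes thus follow in part from how they were picked, and are no separate evidence. Without WT 1, cell cycle markers differed between all remaining WT and PKO libraries, and their part in the result was not tested. With WT 1 and PKO 1 both left out, 7 of the 32 were called lower by edgeR and 0 higher, where 5.63% of genes were called lower and 10.2% higher. To the 4 genes this added Pdha1, Idh3a and Ogdh (edgeR adjusted p of 0.043, 0.0495 and 0.046). The WT libraries of these 3 genes, WT 1 included, lay within 1.07 times of each other. PKO 1, however, was the highest PKO library for each, at 195 CPM for Pdha1, 229 CPM for Idh3a and 219 CPM for Ogdh. Leaving it out lowers their PKO mean, so these 3 calls are no separate evidence either. It also leaves only PKO 2 and PKO 3, the libraries with the highest stromal marker sums (3005 and 2148 CPM), whose part was not tested.

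A further 34 genes of the pathway, listed by name, were examined, of which 32 were tested. They divided evenly, 16 lower and 16 higher, with a median log2 fold change of -0.02. EdgeR called 0 of them at an adjusted p under 0.05, and limma-voom called 0 of all genes. At an unadjusted edgeR p under 0.05, 1 was lower and 2 were higher, where 6.35% and 10.2% of all genes tested were. DESeq2 called 1 higher and 0 lower, where it called 4.73% and 0.933% of genes with an adjusted p. The 4 succinate dehydrogenase subunit genes all had PKO libraries entirely below WT, where 9.7% of all genes tested did. Of these 4, Sdhd was at 188, 182 and 197 CPM in WT and 164, 117.9 and 163 CPM in PKO (log2 -0.35 ± 0.15 SE, edgeR adjusted p = 0.308).

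Both genes that were higher at an unadjusted p are given here. Me1, the NADP-dependent malic enzyme of the cytosol, was at 69.4, 57.8 and 60.5 CPM in WT and 86.7, 84.4 and 105 CPM in PKO, without overlap (log2 0.56 ± 0.14 SE; edgeR adjusted p = 0.185, DESeq2 adjusted p = 0.031). That is opposite in direction to its mitochondrial relative Me2. Slc25a1, the citrate carrier, was at 20.4, 22.5 and 23.7 CPM in WT and 23.5, 51.6 and 49.3 CPM in PKO, high in the 2 libraries with the most stromal marker RNA and within the WT range in PKO 1 (log2 0.90 ± 0.29 SE, edgeR adjusted p = 0.223); the part of those cells in it was not tested. Idh1, the cytosolic counterpart of Idh2, was at 121, 145 and 154 CPM in WT and 151, 168 and 189 CPM in PKO, with overlap, and was named after its values were seen.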

How the data were processed

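Polyadenylated RNA of 6 libraries was sequenced as 150-base read pairs, mapped to GRCm38 with TopHat2 and assigned to genes with HTSeq 0.6.1, per the submitters' processing notes and series text; the sources used here do not give annotation version or strand setting. The deposited read counts are whole numbers and fed every test. FPKM values, deposited by the authors, were used for length-scaled levels. The deposited normalized signal (counts divided by 1 factor per library) was only checked. The log2 fold changes and p-values deposited by the authors (the series text names both DESeq2 and edgeR) are quoted only as theirs.

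Genes kept by filterByExpr were tested with edgeR 4.0.16 (R 4.3.3), with TMM scaling, a robust quasi-likelihood fit and genotype as the only term. Benjamini-Hochberg adjustment ran over all 14025 genes, at a threshold of 0.05. The code was tried on simulated counts with the same dispersion for all genes. These lacked the unevenness within groups seen here, so they do not show how the test behaves on these libraries. DESeq2 1.42.0 and limma-voom (limma 3.58.1) were alternatives. SE was derived from the fold change and its F statistic, and 95% intervals use the t distribution with that test's degrees of freedom; no fold change was shrunken. Levels are CPM with TMM factors; per-library differences used log2(CPM + 0.5). Overlapping exons and transcripts at least 95% identical over 300 bases were looked up in GENCODE M21. Members, lists and alternatives were chosen with earlier results of these data known. All 32 genes are named; full statistics go to the 2 genes with the smallest edgeR p in each role and those with the smallest in the further list, of which 1 is not reported here. Counts limit precision only for the lowest genes (35 counts at least).

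Groups share replicate numbers, which the labels do not tie to a shared animal or day, and libraries were not treated as pairs. Same-numbered libraries deviated together at correlations of 0.114, -0.014 and 0.140, and different-numbered ones at -0.217 to 0.127. A fit with the replicate number as a block was run as an alternative. No 2 libraries shared more than 0.368% of their counts among genes over 100 counts.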

Additional observations from a re-analysis of the deposited data

How the results depend on the processing

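Of the 32 genes, 27 kept their direction under all 16 alternatives run, and 5 with small fold changes did not. Pcx was at a log2 fold change of 0.037 with library size only, 0.15 without WT 1 and PKO 1, and 0.037 without PKO 2 and PKO 3. Pdp1 was at 0.10 without WT 1 and PKO 1, and Pdk2 and Pdk3 were at 0.24 and 0.049 without PKO 2 and PKO 3. With 1 library left out at a time, Mpc2 ran from -0.046 to 0.29, Pdk2 from -0.33 to 0.13, Pdp1 from -0.27 to 0.051 and Pcx from -0.14 to 0.18.

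Leaving out 1 library moved edgeR's calls from 0 to 1000 over all genes (1000 without WT 1, 737 without PKO 1) and from 0 to 4 among the 32 (4 without WT 1), genes at an unadjusted p and lower from 2 (without WT 3; 4 without PKO 2, 5 without WT 2) to 11, genes with PKO below WT throughout from 11 to 18 (18 without WT 2), and DESeq2 calls among the 32 from 0 (without WT 2, WT 3 or PKO 2) to 6 (without PKO 1; 5 without WT 1, 1 without PKO 3). Over all genes, PKO lay wholly below WT for 12.3% without WT 2. Without WT 1 it did so for 16 of the 32 and for 24.6% of all genes. For the counts at an unadjusted p, no share over all genes was taken with 1 library left out, so they have no such comparison. DESeq2 called 5 of the 32 lower and 1 higher without PKO 1, where it called 2.27% and 7.08% of genes, and 4 lower and 1 higher without WT 1, where it called 5.96% and 9.31%. Without WT 1 and PKO 1, edgeR called 2266 genes in all and 7 of the 32, DESeq2 9 of the 32, all lower (6.51% of genes), and 19 genes had PKO below WT throughout (31% of genes, from 2 libraries against 2). Without PKO 2 and PKO 3, a setting added after seeing the data, 1 PKO library is left and is assumed to vary like WT. The list median was then -0.12, and PKO 1 lay below every WT library for 13 of the 32 (22.2% of genes). DESeq2 in place of edgeR gave 917 calls in all and 2 among the 32. With the replicate block 1 gene in all and 0 of the 32 were called, 6 being lower at an unadjusted p; every other call on the 32 was as without it. The causes of these moves were not tested. Scaling by RLE, upper quartile or library size, and other filters on low counts, left edgeR's calls on the 32 at 0. With library size only, the list median was -0.22 against -0.28 in the main fit. PKO then lay wholly below WT for 9 of the 32 against 11, and 6 were lower at an unadjusted p against 8.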
